A study of Mus musculus with 6 samples.

Results

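Nuclear receptors are transcription factors of 1 gene family, most of them switched by a small ligand such as a steroid, a retinoid, thyroid hormone or a fatty acid. They bind DNA through a pair of zinc fingers, often at copies of the hexamer AGGTCA, alone, as homodimers or as heterodimers with a retinoid X receptor. Ligand binding exchanges corepressors such as NCOR for coactivators. In the testis, retinoid, oestrogen and thyroid hormone receptors are known to act in Sertoli cells, germ cells and interstitial cells. The 40 genes described here are mouse nuclear receptors outside the core set of Sertoli cell factors. They were chosen by gene symbol from a table of 22320 genes, and all 40 were found in it.

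Whole testes of mice at postnatal day 1.5 were compared between 2 groups of 3 pools, each pool made from 4 testes. Arid4bSCKO mice had the genotype Arid4b-/Flox; Amh-cre, and control mice had Arid4b+/Flox; Amh-cre, both on a hybrid C57BL6/J and 129/SvEv background. Both groups therefore carried the floxed allele and Cre recombinase driven in Sertoli cells by the Amh promoter, and the null allele of the Arid4bSCKO group was present in all cells. ARID4B is a subunit of the Sin3 histone deacetylase corepressor complex. Each gene is represented by the authors' group means of log2(normalized count + 1) and by their own comparison, with no value per pool, so it was not seen whether single pools of the groups overlapped. Reads assigned to genes came to about 17.5 M (M, mega) for a typical library in Arid4bSCKO and 18.6 M in control. These are estimates from the group means and the worth of 1 read, and reads outside the listed genes are not included.

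The targeted gene was low in the group labelled as its deletion. The mean log2 level of Arid4b was 8.68 in Arid4bSCKO and 10.19 in control, which put it at 35.1% of control. Its FDR in the authors' deposited table was 0.0535, above 0.05, and its moderated limma adjusted p was 2.23e-05. Markers of some cell types moved as well. Over all genes tested by the moderated limma test 6.46% were called lower and 7.37% higher. Centred on the trend over transcript length, these shares were 4.42% and 8.44%. A single call in a list is near such shares and does not set the list apart. None of the listed markers passed 0.05 by the FDR of the authors' deposited table, where the lowest was 0.0656 for Tagln. Of 15 Sertoli cell markers 8 were called lower and 2 higher, and their summed level was 78127 normalized counts in Arid4bSCKO and 128266 in control. Such a sum rests mostly on the most abundant genes. The 5 not called were Sox9 (0.15), Wt1 (-0.21), Amh (-1.62), Aard (-0.75) and Fshr (-0.93). Clu, a secreted chaperone, was lower by a difference of -0.46 and the tight junction gene Cldn11 higher by 0.95. Of 12 macrophage markers 11 were called higher, among them C1qa at 1.20, and their summed level was 7272 against 3240. With the trend over transcript length removed, 7 Sertoli cell markers were lower and 2 higher, and 9 macrophage markers were higher. In the other marker lists 1 of 10 germ cell genes was called lower (Dppa4, -0.86), 1 of 8 endothelial genes higher (Robo4, 0.75), and 2 of 10 interstitial and myoid genes higher, with Tagln at 0.67. None of 8 Leydig cell and 4 erythroid genes passed the moderated limma test or had an unadjusted p below 0.05, where Scarb1 (-0.22) and Hbb-y (-0.49) had the smallest p-values. No marker was at 0 in either group, and the part of these cell types in the receptor values below was not tested. In RNA from whole testes, fewer cells of a type and less RNA per cell cannot be told apart.

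The members on which the results turn are Pparg, Nr1h4, Rara and Esr2. By the moderated limma test Pparg and Nr1h4 were the 2 receptor genes called higher in Arid4bSCKO. Of those called lower, Rara and Esr2 had the smallest adjusted p in that test. Promoter windows of these genes (RefSeq, GRCm38.p6, 250 bases before to 50 after an annotated start) are printed 5′ to 3′ on the gene's strand, with the receptor hexamer AGGTCA and the E-box CACGTG in capitals on either strand (TGACCT is AGGTCA read on the other strand). They are shown because receptor genes are themselves known targets of receptors, and because Pparg and Rara each have more than 1 start.
Pparg, chr6:115362099-115362398, plus strand: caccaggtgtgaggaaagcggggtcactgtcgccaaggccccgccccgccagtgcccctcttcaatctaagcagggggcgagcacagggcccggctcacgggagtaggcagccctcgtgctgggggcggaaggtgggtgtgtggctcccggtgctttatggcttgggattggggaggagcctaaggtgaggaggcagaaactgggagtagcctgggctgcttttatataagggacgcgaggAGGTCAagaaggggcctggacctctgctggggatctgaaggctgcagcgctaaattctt
Nr1h4, chr10:89506609-89506908, minus strand: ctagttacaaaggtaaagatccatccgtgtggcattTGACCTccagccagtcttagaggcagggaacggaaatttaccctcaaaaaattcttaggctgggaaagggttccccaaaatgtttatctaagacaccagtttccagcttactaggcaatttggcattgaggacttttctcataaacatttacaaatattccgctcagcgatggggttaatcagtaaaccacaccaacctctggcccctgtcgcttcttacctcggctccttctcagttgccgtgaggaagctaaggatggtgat
Rara, upstream start, chr11:98937446-98937745, plus strand: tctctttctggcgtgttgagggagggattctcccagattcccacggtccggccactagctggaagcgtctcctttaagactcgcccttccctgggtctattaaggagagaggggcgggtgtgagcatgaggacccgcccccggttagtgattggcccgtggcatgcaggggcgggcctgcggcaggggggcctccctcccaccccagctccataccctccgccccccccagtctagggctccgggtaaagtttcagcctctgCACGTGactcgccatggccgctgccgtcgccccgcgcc
Rara, downstream start, chr11:98964622-98964921, plus strand: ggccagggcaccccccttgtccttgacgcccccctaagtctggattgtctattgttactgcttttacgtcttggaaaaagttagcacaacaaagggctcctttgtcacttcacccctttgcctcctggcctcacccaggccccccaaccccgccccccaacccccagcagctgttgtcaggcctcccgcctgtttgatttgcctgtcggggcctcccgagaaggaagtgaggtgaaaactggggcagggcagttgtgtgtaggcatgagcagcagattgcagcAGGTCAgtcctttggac
Esr2, chr12:76177210-76177509, minus strand: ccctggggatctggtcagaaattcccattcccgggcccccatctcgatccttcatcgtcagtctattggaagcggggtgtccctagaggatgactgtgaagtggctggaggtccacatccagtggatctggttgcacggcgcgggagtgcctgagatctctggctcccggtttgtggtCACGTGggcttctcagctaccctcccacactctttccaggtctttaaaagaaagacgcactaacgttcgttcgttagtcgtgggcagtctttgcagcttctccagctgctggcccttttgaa
The printed Pparg and Nr1h4 windows each held 1 such hexamer. The Nr1h4 window lies at a start inside the gene, whose outermost 5′ end is at 89533622, and no window at that end was searched. The upstream window of Rara held an E-box and no hexamer, the downstream window a hexamer and no E-box, and the Esr2 window an E-box and no hexamer. Other windows of these genes were searched but not printed. For Pparg, chr6:115421816-115422115 held neither motif and chr6:115360894-115361193 held 1 AGGTCA. For Rara, chr11:98939461-98939760 held neither motif, and chr11:98937468-98937767, which overlaps the printed upstream window, held 1 CACGTG. Windows were matched for 37 of the 40 genes, all but Hnf4g, Nr3c1 and Thra, and 58 windows in all were searched. AGGTCA was found in 19.0% of them and in 16.3% of the 32851 windows of all genes. CACGTG was found in 10.3% of them and in 7.15% of all windows. Of the 11 called receptor genes with a window, 4 held AGGTCA in at least 1 window (Pparg, Nr1h4, Rara and Rxra) and 2 held CACGTG (Rara and Esr2). Of all 37 receptor genes with a window, 10 held AGGTCA and 5 held CACGTG. These are counts of genes, some with more than 1 window, and are not comparable with the shares of windows. These matches describe the letters of the windows only. The table gives 1 value per gene, so the use of a start was not measured.

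Levels can be set side by side between genes once divided by transcript length. On this scale of normalized counts per kilobase, Thra, a thyroid hormone receptor gene, had the highest control level of the 40 at 3691, followed by the COUP-TFII gene Nr2f2 at 1105, Rara at 663 and Rxra at 484. Next came Rxrb at 453, the oxysterol receptor gene Nr1h2 at 437, the TR4 gene Nr2c2 at 343 and the REV-ERB-beta gene Nr1d2 at 324. Within a subfamily the levels were far apart. Thrb stood at 31.4 beside Thra, Rarg at 104 and Rarb at 13.9 beside Rara, and Rxrg at 10.6 beside Rxra. The oestrogen receptor genes Esr1 and Esr2 had nearly the same control level, 90.7 and 89.3. Pparg was at 3.99 in control, far under Ppard at 151 and Ppara at 60.3, and at 23.7 in Arid4bSCKO. Nr1h4 was at 9.07 in control and 23.1 in Arid4bSCKO. Levels near 1 per kilobase were seen for Hnf4a, Nr1i2, Nr2e1 and Rorb, which are receptor genes of liver, gut or nervous tissue.

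**Figure D1:**
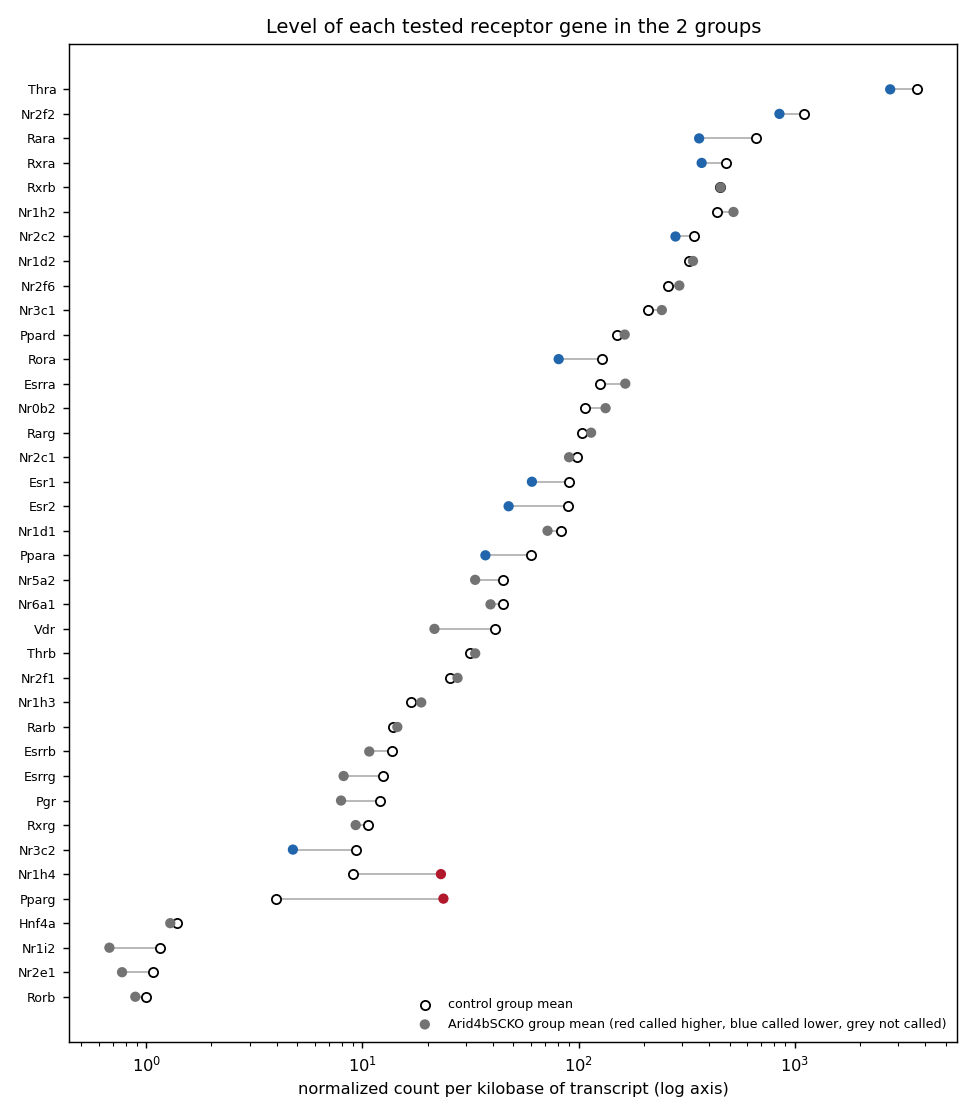
Group mean levels of the 38 tested receptor genes, as normalized counts per kilobase of transcript on a log axis, ordered by control level (open circles, control; filled circles, Arid4bSCKO). Thra is highest, and Pparg and Nr1h4 are the only genes in red, called higher, both in the lower part of the order.

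The comparison asked which receptor genes differed between Arid4bSCKO and control testes. By the FDR of the authors' deposited table, the main test, none of the 40 passed 0.05, where 0.26% of all genes did, and the lowest value was 0.113 for Ppara. The targeted gene Arid4b, at 0.0535, did not pass it either. The calls below come from a second, moderated limma test, which shares the spread between pools over genes of like level. In it Rara, Rxra, Thra, Ppara, Rora, Nr2c2, Nr2f2, Esr1, Esr2 and Nr3c2 fell, by differences from -0.29 (Nr2c2) to -0.94 (Nr3c2) on the log2(normalized count + 1) scale. Pparg and Nr1h4 rose, by 2.43 and 1.30. "Called", "rose" and "fell" here mean an adjusted p below 0.05 in that test. Folds and percentages of control are on the scale of the normalized count + 1. Of the 38 receptor genes at or above a mean log2 level of 1, 12 were called (31.6%), where 13.8% of all 19095 genes tested were. In the single directions 10 (26.3%) were called lower, where 6.46% of all genes tested were, and 2 (5.26%) were called higher, where 7.37% of all were. The 26 others were not called. The median difference was -0.18 over the 38 genes and -0.04 over all genes tested, and 60.5% of the 38 and 54.2% of all had a negative difference.

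The strength of these calls depends on the test. At an unadjusted p below 0.05 in the authors' deposited table there were 16 (20.9% of all genes were), 12 of them lower (11.1% of all genes) and 4 higher (9.86%). When the trend on level was dropped, the moderated limma test called 0 of the 12, with adjusted p-values from 0.0575 to 0.151, and 164 genes higher and 73 lower in the whole table. Transcript length also moved with the differences, with a rank correlation of -0.22 over 17672 genes, and the receptor transcripts were longer, with a median of 3261 bases against 2755 for all genes tested. With differences centred on the length trend, 6 receptor genes were called lower, against 4.42% of all genes, and 3 higher, against 8.44%. Rxra, Nr2c2, Nr2f2 and Nr3c2 were then not called, and the glucocorticoid receptor gene Nr3c1 was called higher. Centring on the median of all genes gave 8 lower and 3 higher, against 5.18% and 8.57% of all genes.

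**Figure D2:**
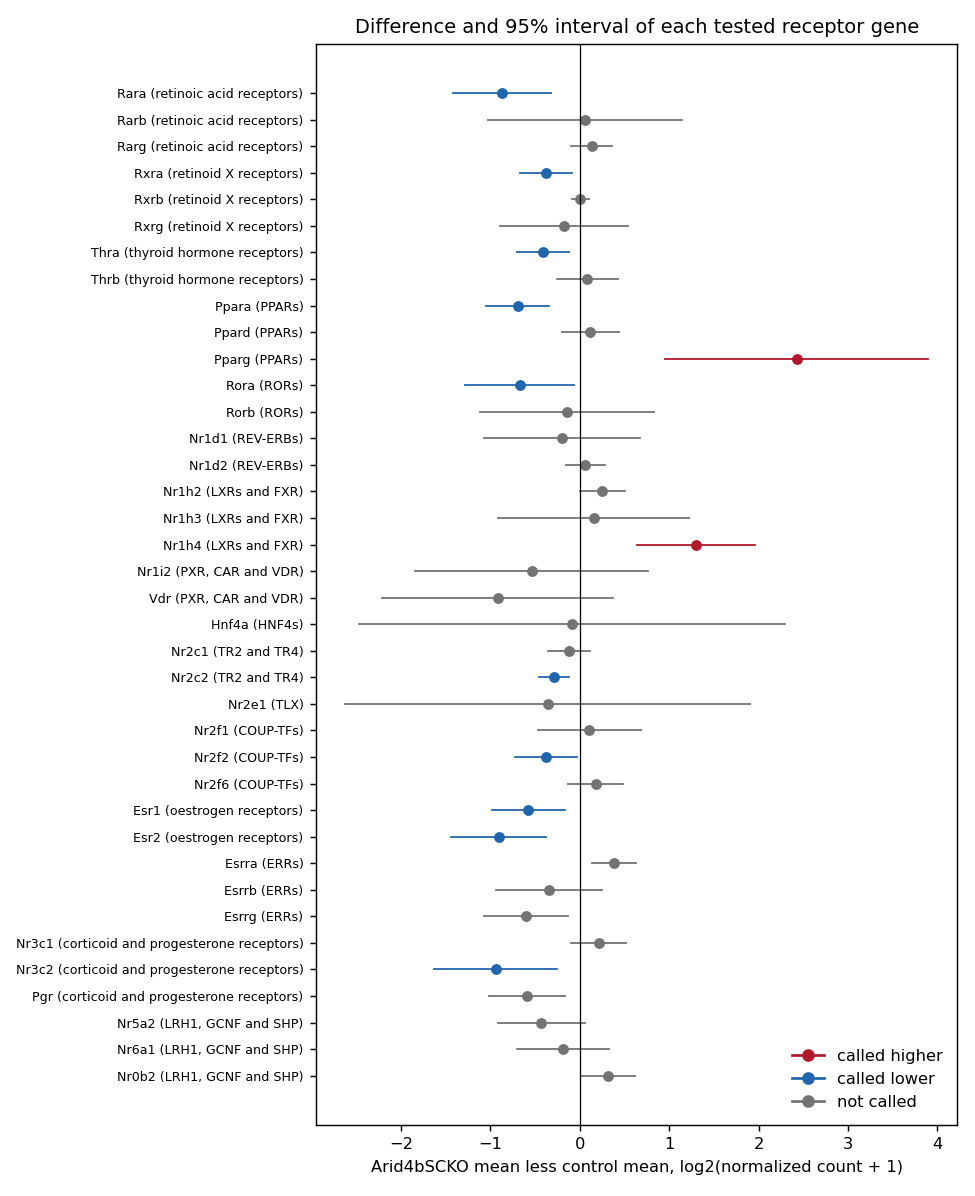
Difference between the group means (Arid4bSCKO less control, log2 units) of the 38 tested receptor genes with 95% intervals from the spread between pools, ordered by subfamily. The 2 red intervals (Pparg, Nr1h4) lie above 0 and the 10 blue ones below it, while most grey intervals, not called, include 0.

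**Figure D3:**
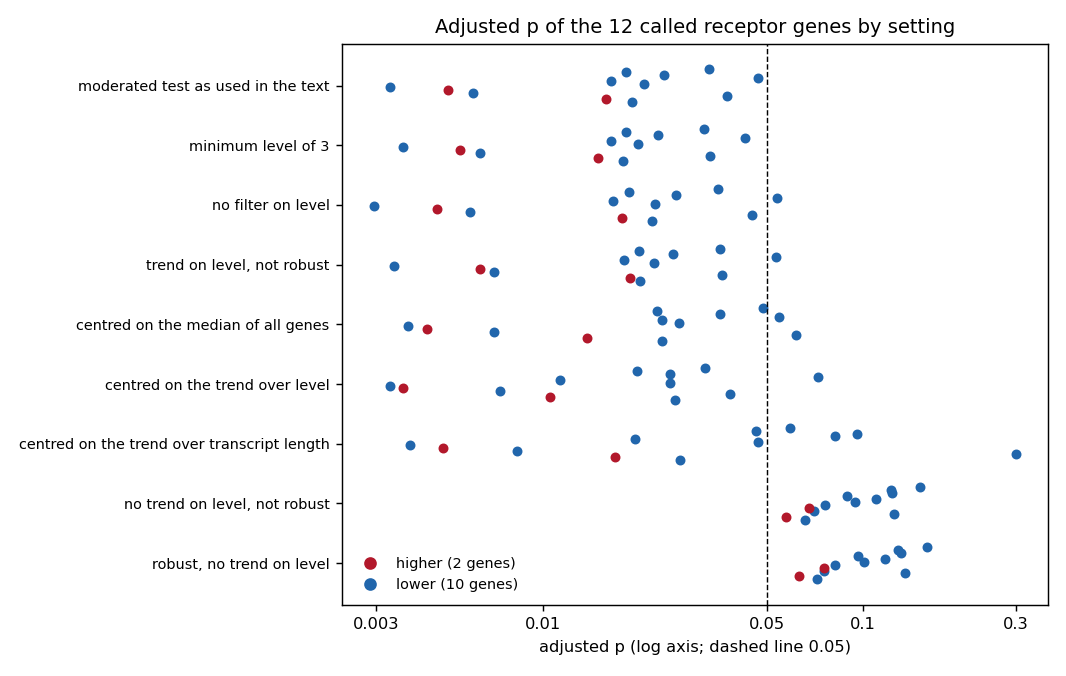
Adjusted p of the 12 called receptor genes (log axis) under the moderated test as used in the text and 8 alternatives, 1 row per setting and 1 point per gene (red, higher; blue, lower; dashed line at 0.05). All points lie right of the line in the bottom 2 rows, where the trend of the spread on level was dropped.

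Among the retinoic acid receptors, which bind all-trans retinoic acid and pair with an RXR, the alpha gene alone was called (1 of 3). Rara (chromosome 11, 98937696 to 98974942, plus strand, mm10) had mean log2 levels of 10.17 in Arid4bSCKO and 11.04 in control. Its difference of -0.87 had a 95% interval of -1.42 to -0.33, or 54.6% of control, with a moderated limma adjusted p of 0.00333, the smallest of the 38. Rarb was at 5.53 and 5.47, a difference of 0.06 with a wide interval of -1.03 to 1.15, and Rarg at 8.35 and 8.21, a difference of 0.13 (-0.10 to 0.37). The interval of Rarg does not reach the value of Rara, but the difference between the 2 genes was not tested. Parts of Rarb exons, 34.1% of their bases, lie under exons of Top2b on the opposite strand, and whether reads were counted by strand was not stated in the labels.

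The retinoid X receptors are the shared partners of many receptors in the family. Rxra (chromosome 2, 27677201 to 27763319, plus strand) had levels of 10.83 and 11.21, a difference of -0.38 (95% interval -0.67 to -0.09), or 76.8% of control, with a moderated limma adjusted p of 0.0239. Rxrb had the narrowest interval of the 38 tested genes, 10.17 in both groups, with a difference of 0.01 and an interval of -0.09 to 0.10. Rxrg was low, at 4.20 and 4.38, and its interval of -0.90 to 0.54 was wide. A fall of the size seen for Rxra lies outside the interval of Rxrb and inside that of Rxrg.

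Of the thyroid hormone receptor genes, Thra fell and Thrb was not called. Thra (chromosome 11, 98741873 to 98769006, plus strand), which encodes the receptor TR-alpha and a splice form that binds no hormone, was at 12.60 and 13.02. The difference of -0.41 (-0.71 to -0.12) put it at 75.1% of control, with a moderated limma adjusted p of 0.0163. Thrb was at 7.49 and 7.40 (0.08, -0.26 to 0.43). The 3′ end of Thra shares 263 exon bases with Nr1d1 on the opposite strand, which is 5.70% of the exon bases of Thra and 8.55% of those of Nr1d1. Nr1d1, the REV-ERB-alpha gene, was at 7.62 and 7.82, with an interval of -1.08 to 0.67.

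In the PPAR group, receptors for fatty acids, 1 gene fell, 1 rose and 1 was not called. Ppara (chromosome 15, 85735564 to 85806851, plus strand), a driver of fatty acid oxidation, was at 6.79 and 7.49, a difference of -0.70 (-1.04 to -0.35) or 61.7% of control, adjusted p = 0.019 in the moderated limma test. Ppard was at 9.07 and 8.95 and was not called (0.12, -0.20 to 0.44). Pparg (chromosome 6, 115361221 to 115490401, plus strand), the receptor of adipocytes and of some macrophages, had levels of 5.56 and 3.13. This difference of 2.43 had an interval of 0.96 to 3.90, 5.38-fold on the scale of the normalized count + 1, and a moderated limma adjusted p of 0.00506. In normalized counts its means were 46.1 and 7.76, so the control value rests on few reads. The macrophage markers given above moved in the same direction, and their part in the level of Pparg was not tested.

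Receptors for oxysterols and bile acids are the LXR genes Nr1h2 and Nr1h3 and the FXR gene Nr1h4. Nr1h4 (chromosome 10, 89454234 to 89533622, minus strand) was at 5.55 and 4.25, a difference of 1.30 (0.64 to 1.96) or 2.46-fold, with a moderated limma adjusted p of 0.0157. Its means in normalized counts were 45.8 and 18.0. Nr1h2 was at 10.02 and 9.77, with a difference of 0.25 whose interval of -0.0017 to 0.51 included 0 (adjusted p = 0.11 in the moderated limma test). Nr1h3, which is strong in macrophages, was at 5.18 and 5.02, a difference of 0.16 with an interval of -0.92 to 1.23.

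Both oestrogen receptor genes fell. Esr2 (chromosome 12, 76120419 to 76177259, minus strand), which encodes ER-beta, was at 7.31 and 8.21, a difference of -0.91 (-1.44 to -0.38) or 53.3% of control, and its moderated limma adjusted p was 0.00603. Esr1 (chromosome 10, 4612046 to 5003761, plus strand), which encodes ER-alpha, was at 8.05 and 8.63, a difference of -0.57 (-0.98 to -0.17) or 67.2% of control, with a moderated limma adjusted p of 0.0207. The 2 intervals overlap widely, and the difference between the genes was not tested. The oestrogen-related receptors, which bind no known natural hormone and act on mitochondrial genes, were not called. Esrra was at 8.53 and 8.15, with an interval above 0 (0.13 to 0.63) and a moderated limma adjusted p of 0.0615, which was below 0.05 with centring on the median of all genes (0.0445). Esrrb (-0.34, -0.93 to 0.24) and Esrrg (-0.60, -1.07 to -0.14) had values on the other side of 0.

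Of the corticoid and progesterone receptor genes 1 of 3 was called. Nr3c2 (chromosome 8, 76902508 to 77243639, plus strand), the mineralocorticoid receptor gene, was at 4.81 and 5.75, a difference of -0.94 (-1.63 to -0.25) or 52.1% of control. Its moderated limma adjusted p of 0.0469 was the largest among the called genes, and the call held in 1 of 8 alternatives, a minimum level of 3. The adjusted p of Nr3c2 in the moderated limma test was 0.0538 without a filter on level, 0.0534 without robust fitting, 0.0545 with centring on the median, 0.0721 on the level trend and 0.0817 on the length trend. Nr3c1, the glucocorticoid receptor gene, was at 10.59 and 10.37 (0.21, -0.09 to 0.52), and it was called higher with the length trend removed (0.35, moderated limma adjusted p = 0.0431). Pgr, the progesterone receptor gene, was at 5.80 and 6.39, and its difference of -0.59 (-1.02 to -0.17) was not called, with a moderated limma adjusted p of 0.0925.

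The orphan receptors of the NR2 branch include repressors and regulators of mesenchymal and germ cells. Nr2f2 (chromosome 7, 70351950 to 70366746, minus strand), a marker of interstitial cells of the fetal testis, was at 11.29 and 11.67, a difference of -0.38 (-0.72 to -0.03) or 77.0% of control, with a moderated limma adjusted p of 0.0329. Its relatives Nr2f1 (0.11, -0.47 to 0.69) and Nr2f6 (0.18, -0.13 to 0.49) were not called. Exons of Ocel1 on the opposite strand cover 54.4% of the exon bases of Nr2f6, and Ocel1 itself differed by 0.85. Nr2c2 (chromosome 6, 92091418 to 92173058, plus strand), the TR4 gene, was at 11.07 and 11.36, a difference of -0.29 (-0.45 to -0.12) or 82.0% of control, adjusted p = 0.0376 in the moderated limma test. With a transcript of 7647 bases its difference centred on the length trend was -0.14, with a moderated limma adjusted p of 0.302. Nor was it called with centring on the median of all genes (moderated limma adjusted p = 0.0618). Exons of Mrps25 on the opposite strand cover 30.7% of its exon bases, and Mrps25 itself differed by 0.08. Nr2c1, the TR2 gene, was at -0.12 (-0.36 to 0.11).

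The clock-linked receptors RORs and REV-ERBs bind the same response elements with opposite effect. Rora (chromosome 9, 68653786 to 69388246, plus strand) was at 9.09 and 9.76, a difference of -0.67 (-1.28 to -0.06) or 62.8% of control, with a moderated limma adjusted p of 0.0182. Rorb was at 3.13 and 3.28 (interval -1.11 to 0.82). Nr1d2 was at 10.63 and 10.56, a difference of 0.06 (-0.16 to 0.28).

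Of the remaining genes, Nr5a2 (LRH-1, a relative of the Sertoli cell factor SF1) was at -0.43 (-0.91 to 0.06), and Nr6a1 (GCNF, a germ cell factor) was at -0.19 (-0.70 to 0.33). Nr0b2 (SHP, which lacks the zinc fingers and represses other receptors) was at 0.32, with an interval of 0.02 to 0.62 and a moderated limma adjusted p of 0.231. Vdr, the vitamin D receptor gene, had a value as low as the falling genes, at 6.57 and 7.49, but a wide spread between pools (-0.92, -2.21 to 0.38). The implied SD was 0.57 for Vdr, where the median over the 38 genes was 0.21. Nr1i2 (PXR) was at 1.44 and 1.98, Nr2e1 (TLX) at 1.82 and 2.18 and Hnf4a at 2.73 and 2.81, each the equivalent of a few reads per library, and their intervals were wide, as for Hnf4a from -2.47 to 2.30. Exons of Tomm40l on the opposite strand cover 74.9% of the exon bases of Nr1i3 (CAR). Nr1i3, at 1.23 and 0.60, lay under the level of 1 needed for the test. Hnf4g was listed at 0 in control and at 0.03 in Arid4bSCKO, which is what a value of 0.1 filled in for 1 library gives, and it was not tested either.

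**Figure D4:**
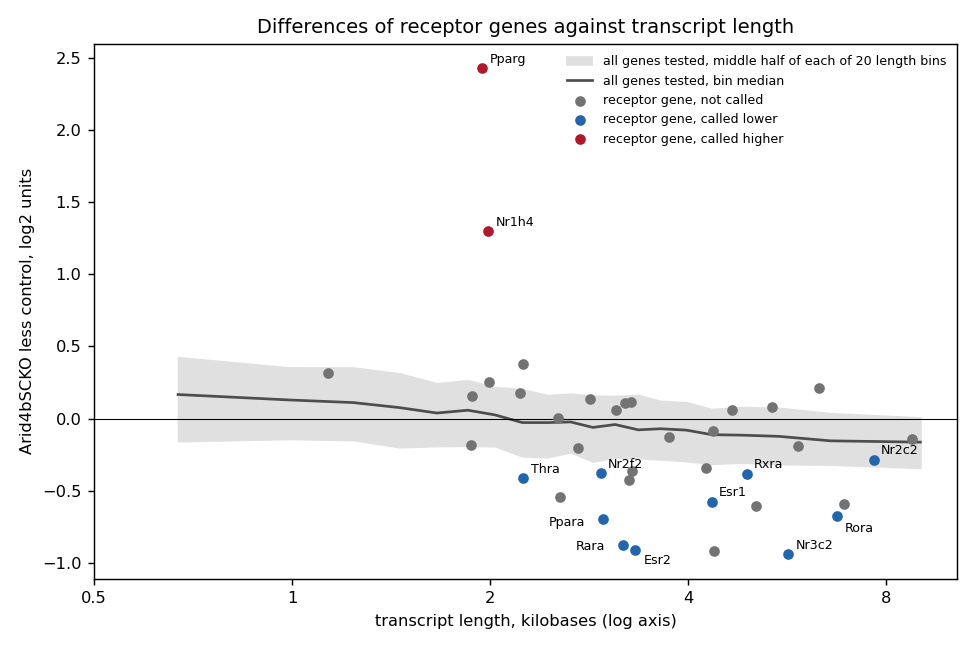
Difference of the tested receptor genes (points; Arid4bSCKO less control, log2 units) against transcript length in kilobases (log axis), over the median and interquartile range of all genes in 20 length bins. The bin median runs from 0.17 for the shortest to -0.16 for the longest transcripts, and the called lower genes from Thra to Nr2c2 lie below it.

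The 10 genes called lower had a median transcript length of 3830 bases, and Pparg and Nr1h4 had 1946 and 1985. Thra, at 2246 bases, kept a difference of -0.40 with the trend removed, and Rara, at 3184 bases, kept -0.81 (moderated limma adjusted p = 0.00384). Esr2 was then at -0.84, Ppara at -0.65, Rora at -0.53 and Esr1 at -0.47, and all 4 remained called. Rxra went from -0.38 to -0.27 (adjusted p = 0.0959, moderated limma test), and Nr2f2 from -0.38 to -0.33 (adjusted p = 0.0592, moderated limma test).

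Genes that serve the receptors were read from lists of coregulators, ligand enzymes and targets. Their counts stand beside 6.46% of all genes tested called lower and 7.37% called higher. With the length trend removed these shares were 4.42% and 8.44%. Lists with a single call, here and below, are near these shares and are not set apart by it. None of the genes in these lists passed 0.05 by the FDR of the authors' deposited table, where the lowest was 0.0537 for Fabp3. Of 11 coactivator genes 3 were called lower and 1 higher, with Nsd1 at -0.32 and the acetyltransferase gene Kat2b at 0.39. Once the length trend was removed 1 was lower and 1 higher, and Nsd1 was at -0.14. Of 10 corepressor genes 3 were called lower and 0 higher, with Sin3a, the scaffold of the complex that ARID4B joins, at -0.40 (-0.54 to -0.26). It was the 1 corepressor gene still called with the length trend removed (-0.28, moderated limma adjusted p = 0.0368). The list medians were -0.06 and -0.24, beside -0.04 over all genes tested.

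**Figure D5:**
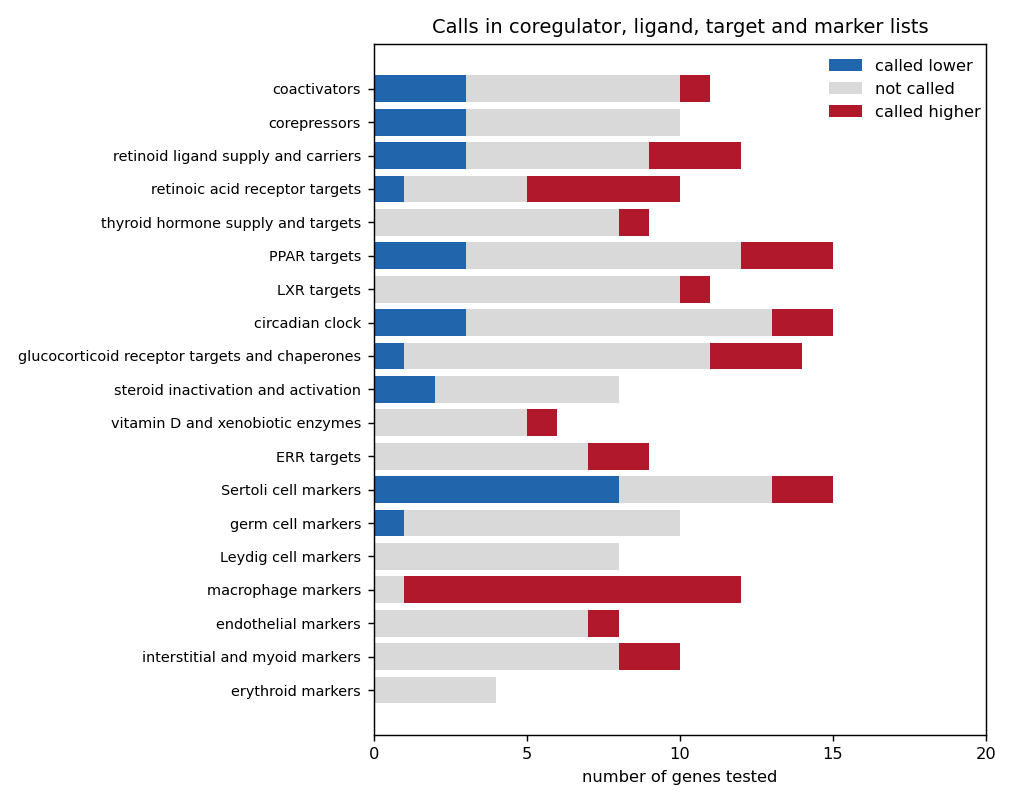
Number of tested genes called lower (blue), not called (grey) and called higher (red) by the moderated limma test in each list of coregulators, ligand enzymes, targets and cell markers. Macrophage markers are nearly all red, and 8 of 15 Sertoli cell markers are blue.

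Ligand enzymes and targets of the retinoid receptors moved in both directions. Of 12 tested genes of retinoid supply and carriage 3 were called higher and 3 lower, with the retinol dehydrogenase gene Rdh10 at 1.08 (0.59 to 1.58) and the retinal dehydrogenase gene Aldh1a1 at -0.59 (-0.73 to -0.44). With the length trend removed 4 of the supply and carriage genes were called higher and 2 lower. Of 10 retinoic acid receptor targets, 5 of which the supply list also holds, 5 were called higher and 1 lower. Their median difference was 0.44. Dhrs3, a retinal reductase gene, was at 0.50, and Cyp26b1, which degrades retinoic acid, at -0.71 (-1.28 to -0.14). The higher targets stood beside the lower Rara and Rxra. With the length trend removed 4 targets were called higher and 1 lower, Rara was still called lower, and Rxra was not called (moderated limma adjusted p = 0.0959).

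The PPAR targets were split evenly, with 3 of 15 called in each direction. Fabp3, a fatty acid binding protein gene, was at 2.03 (1.60 to 2.45) and the lipase gene Lpl at -0.99 (-1.53 to -0.45). With the length trend removed 2 were called in each direction. Of 11 LXR targets 1 was called higher and 0 lower, namely Apoe at 0.61 (0.15 to 1.07), a gene that macrophages also express. With the length trend removed 2 LXR targets were called higher and 0 lower, with Srebf1 added (0.30, moderated limma adjusted p = 0.0456). Of 9 genes of thyroid hormone supply and response 1 was called, the transporter gene Slc16a10, higher at 1.48 (0.63 to 2.33). Of 15 circadian clock genes 2 were called higher and 3 lower, with the bZIP genes Nfil3 at 0.76 (0.40 to 1.12) and Tef at -1.24 (-1.88 to -0.61). With the length trend removed the lower count was 1.

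Of 14 glucocorticoid receptor targets and chaperones 3 were called higher and 1 lower. The metallothionein gene Mt1 was at 0.68 (0.51 to 0.85), and Fkbp5, a cochaperone of the receptor, was at -0.32 (-0.52 to -0.11) and no longer called with the length trend removed (-0.25, moderated limma adjusted p = 0.0798). In the list of steroid activation and inactivation 2 of 8 tested genes were called lower and 0 higher, with Hsd11b2, the enzyme that shields the mineralocorticoid receptor from cortisol-type steroids, at -0.75 (-1.05 to -0.44). Nr3c2 itself was at -0.94. Of 6 tested vitamin D and xenobiotic enzyme genes Cyp27a1 was called higher, at 0.36, but not with the length trend removed (0.34, moderated limma adjusted p = 0.0562). Of 9 ERR targets 2 were called higher and 0 lower, with the Krebs cycle gene Idh3a at 0.29 (0.07 to 0.51), and 1 was called higher with the length trend removed.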

How the data were processed

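Poly(A) RNA of whole testes was sequenced from 3 pools per group. The submitters' processing notes list STAR 2.4 and mm10. The tool used for counting, its strand setting and the scaling were not given in the sources used here. Per the file headers, the authors deposited group means of log2 normalized counts, a log2 fold change of group medians, raw p-values of an equal-variance test and their Benjamini-Hochberg FDR. The FDR was recomputed over 22320 genes (largest relative difference 4.78e-05).

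Each difference received the standard error that its deposited p-value implies at 4 residual degrees of freedom. The main test is the deposited FDR below 0.05, which none of the 40 genes passed. The calls in the text (called, rose, fell) come from a second, moderated test over 19095 genes at or above a mean log2 level of 1. It shrank the implied variances with limma 3.58.1 in R 4.3.3 (squeezeVar, robust, trended on level). The 529 rows with a filled-in value lie under a level of 1, and they were also left out where no filter on level was used. Intervals are 95%. Transcript lengths came from GENCODE M21 (89.2% of genes). Start positions were made 1-based.

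Both group means, the difference, the interval and the adjusted p are given for the 12 called receptor genes. The next by p, to make 20 in all, have an interval and some of the other values. In each list, the called gene with the smallest p per direction is named, or else the gene with the smallest p. Nr1d1, Mrps25, Ocel1 and members given without a call were added. A list of further receptor genes is not reported here. Members and lists were chosen with earlier results of these data known. Whether pools shared litters is not labelled, so the p-values cover only the spread among these pools. Alternatives covered the level filter, the variance trend and centring on the median, level or length.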

Additional observations from a re-analysis of the deposited data

How the results depend on the processing

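No paired analysis was possible because the table holds group means without a value per library, and leaving out each replicate was not run for the same reason. The count of receptor genes called lower, 10, was 6 with differences centred on the trend over transcript length. Without the trend on level it was 0, as was the count called higher (0), whether or not fitting was robust. Robust fitting without the trend, and the trend without robust fitting, were chosen after seeing the data. Under the other alternatives 8 to 10 genes were called lower and 2 to 3 higher. No receptor gene passed the deposited FDR when it was readjusted over genes at a level of 1 or more (0, lowest 0.101) or with at least 5 normalized counts (0, lowest 0.0937), and 16 passed at an unadjusted p below 0.05. The median difference of -0.18 ranged from -0.18 to -0.10. None of the 20 genes, the called ones and the next by p, changed direction under these alternatives or with the fold change of group medians. The cause was not tested. Few reads limit the values of Pparg in control and of Hnf4a, Hnf4g, Nr1i2, Nr1i3, Nr2e1 and Rorb in both groups.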
